A study of Mus musculus with 2 samples.

Results

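The genes described here build the motors that carry cargo along microtubules in axons and dendrites: the kinesins and their light chains and linkers, cytoplasmic dynein, and dynactin. They were taken by symbol, as protein-coding genes named Kif or Klc with a number, Dync1, Dctn with a number, Kifap3, Dynll1, Dynll2, Dynlt1, Dynlt3 or Dynlrb1. The rule found 63 genes among 21474 protein-coding genes: 39 Kif genes, 4 Klc genes, 13 dynein genes, 6 dynactin genes and Kifap3. The symbol Kif1bp belongs to a kinesin-binding protein and not to a motor, so 38 kinesin motors remain. Genes that were not detected were kept.

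The material was 2 RNA-seq libraries from laser-captured patches of layer 5 of the cerebral cortex of a wild-type adult male C57Bl6 mouse (strain B6NCrl in the labels) aged 8 months. Each patch covered 8000 square microns; the labels enter it as 50 cells and title the assay as a single cell one. Biological replicate numbers 1 and 2 are given to libraries of the same donor, so there was 1 group, no treatment, and no contrast other than between the areas. Every SD below is therefore the spread between 2 areas of 1 animal, and no test across animals exists. A patch of tissue also holds glia and vessels, and fewer cells of a type cannot be told apart from less RNA per cell.

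A kinesin motor domain splits ATP to walk along a microtubule, in most families towards its plus end, which in axons points away from the cell body. Cytoplasmic dynein walks the other way and needs dynactin, a large multisubunit complex, together with an activating adaptor for long runs. Different kinesins carry different loads, and a projection neuron of layer 5 must supply an axon that can run as far as the spinal cord. Expression below is given in TPM, a deposited transcript level scaled for transcript length and library size, so that levels of different genes can be set side by side. Where a gene or transcript is given with a pair of values, they belong to replicate 1 and replicate 2.

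Most of the transport motors were present in both areas, and the motors known for cell division were low. Of the 63 genes, 40 reached 1 TPM in both libraries, 21 stayed under 1 TPM in both, and Kif13a and Kif1c reached that level in 1 library only. That is 63.5% of the genes, beside 51.5% of all protein-coding genes. Replicate 1 had a median of 7.40 TPM over these genes and replicate 2 one of 6.65 TPM, and 30 of them averaged 10 TPM or more. Together they held 0.804% of all counts in replicate 1 and 0.792% in replicate 2. The libraries held 26059117 and 28276843 expected counts, of which spike-in RNA took 7.19% and 7.94%. The layer 5 genes Fezf2, at 18.6 and 24.5 TPM, Etv1, at 19.0 and 23.8 TPM, and Bcl11b, at 10.99 and 6.91 TPM, were present in both. All 12 genes of a pan-neuronal list reached 1 TPM in both areas.

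**Figure D1:**
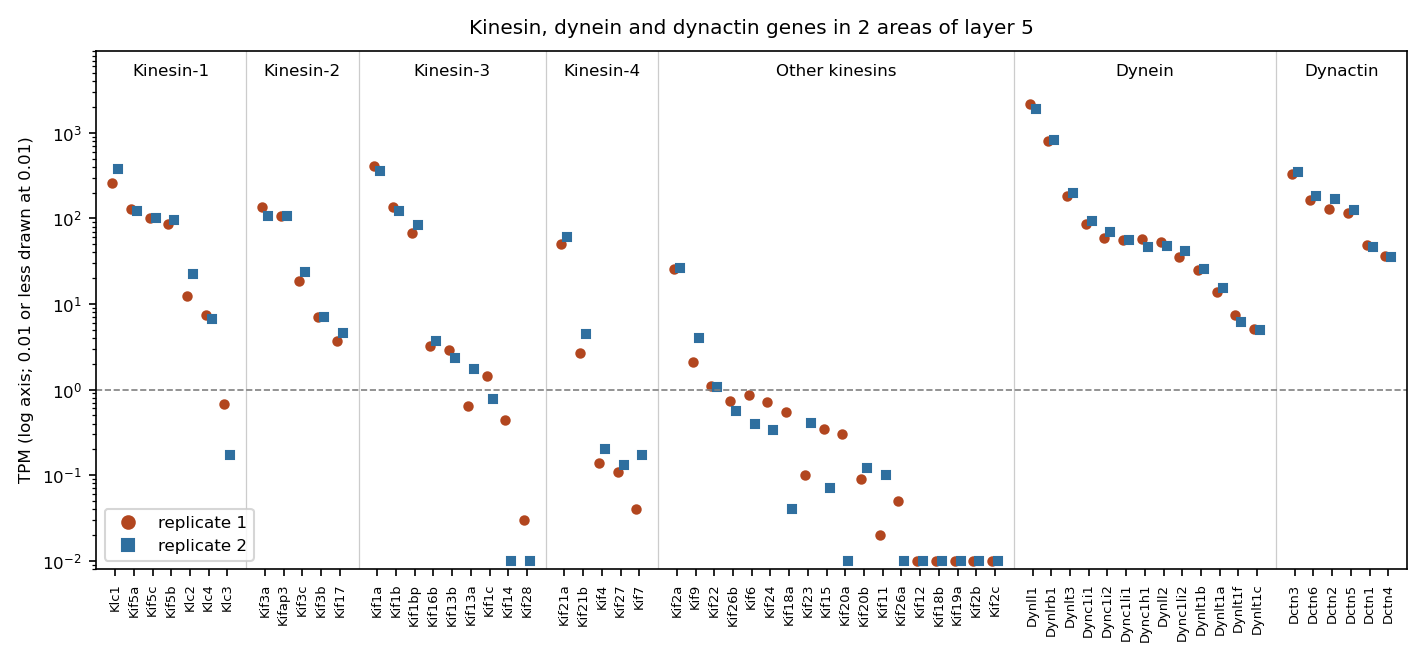
TPM of each of the 63 genes (log axis) by family, with replicate 1 as a circle and replicate 2 as a square; the dashed line is 1 TPM. Dynll1 stood highest, at 2162 and 1889 TPM, by gene level all 13 dynein and all 6 dynactin genes lay above the line in both areas, and 5 kinesins had 0 counts in both.

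The motor domains can be recognised in the annotated coding sequences by the P-loop, the stretch that holds the phosphates of ATP. The pattern searched in the translated sequence was glycine, any 4 residues, glycine, lysine, and then threonine or serine. It was present in 38 of the 38 kinesin motors, against 4.29% of 21866 protein-coding genes, each of the latter taken by its longest coding sequence. Each motor was taken by its most abundant near-full-length transcript. Where such transcripts had no signal, as in Kif6, Kif14 and the 5 kinesins with 0 counts, the one with the longest coding part was taken. The windows below show 60 bases of coding sequence of 7 abundant kinesins, from GENCODE M21 transcripts of GRCm38, with the 24 bases of the P-loop in capitals. They are shown because reads of these relatives must be told apart by differences of this kind.
Kif5a: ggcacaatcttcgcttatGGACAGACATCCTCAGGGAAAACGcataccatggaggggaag
Kif5c: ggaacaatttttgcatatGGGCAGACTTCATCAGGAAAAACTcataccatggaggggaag
Kif1b: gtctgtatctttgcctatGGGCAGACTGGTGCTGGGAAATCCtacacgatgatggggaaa
Kif3a: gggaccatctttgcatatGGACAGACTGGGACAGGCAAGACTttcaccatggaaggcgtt
Kif3c: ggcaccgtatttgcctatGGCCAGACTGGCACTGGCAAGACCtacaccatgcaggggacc
Kif21a: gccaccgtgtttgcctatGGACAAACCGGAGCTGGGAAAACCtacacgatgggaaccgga
Kif2a: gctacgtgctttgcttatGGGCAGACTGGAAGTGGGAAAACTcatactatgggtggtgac
Kif1a and Kif5b, also abundant, are not among the 7, and their windows were not compared. The closest pair of those shown was Kif5a with Kif5c, which differed at 9 of the 60 bases. Kif1b and Kif5a differed at 21. No pair of these windows was identical.

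Kinesin-1 moves vesicles and mitochondria outward, and its heavy chains Kif5a, Kif5b and Kif5c can take the same place in the motor. Kif5a (chromosome 10, 127225696 to 127263348, mm10 as for all positions here) had 129 and 122 TPM. Kif5c had 99.7 and 102 TPM, and Kif5b, the form made in most tissues, had 85.1 and 95.7 TPM. Kif5a stood first in both areas, and the values of the 3 genes did not overlap. Of their summed TPM, Kif5a held 39.6% ± 1.96 (SD, n = 2), Kif5c 31.8% ± 0.01 and Kif5b 28.6% ± 1.97. The share of Kif5b depended on a 2006-base annotated transcript with a shorter coding part, Kif5b-202, which held 42.3% and 46.0% of the TPM of the gene and 20.1% and 23.1% of its counts. When only near-full-length coding transcripts were summed, meaning those with at least 80% of the longest coding length of the gene, Kif5b had 45.9 and 46.7 TPM. The shares were then 46.1% for Kif5a, 36.9% for Kif5c and 17.0% for Kif5b, in the same order. Both neuronal heavy chains thus lay above Kif5b under either sum.

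The kinesin-1 light chains, which bind cargo, were almost entirely Klc1. Klc1 had 260 and 374 TPM and held 92.7% ± 0.04 (SD, n = 2) of the light chain TPM. Klc2 had 12.4 and 22.6 TPM, of which near-full-length coding transcripts, defined as above, held 7.74 and 14.1 TPM, and Klc4 had 7.50 and 6.65 TPM. Klc3 had 22.2 and 2.97 expected counts, at 0.68 and 0.17 TPM, and 28.1% of its annotated exonic bases also belong to Ercc2 on the other strand. The summed light chains reached 280 and 404 TPM, beside 314 and 319 TPM for the heavy chains. Both Klc1 and Klc2 were higher in replicate 2.

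Kinesin-2 is built from Kif3a, a partner chain and the linker Kifap3, or from Kif17 alone. Kif3a had 135 and 106 TPM, and Kifap3 had 105 and 106 TPM. Of the partners, Kif3c had 18.4 and 23.5 TPM and Kif3b had 7.08 and 7.0 TPM. The neuronal partner Kif3c was thus 2.59-fold above Kif3b in replicate 1 and 3.35-fold above it in replicate 2. The level of Kif3c carries a limit: 35.3% of its exonic bases are shared with the antisense gene 1110002L01Rik, at 10.7 and 16.8 TPM, and the strand setting of the counts is not known. Kif3a exceeded Kif3b and Kif3c together in both areas, and near-full-length coding transcripts of Kif3a still held 91.8 and 64.3 TPM. Kif17, which carries NMDA receptor vesicles in dendrites, had 3.72 and 4.57 TPM, of which near-full-length coding transcripts held 0.23 and 0.34 TPM, under 1 TPM in both areas.

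Kinesin-3 motors haul synaptic vesicle precursors and dense-core vesicles, with Kif1a as the main neuronal form. Kif1a (chromosome 1, 93015464 to 93101951) had 408 and 359 TPM, the highest gene level of any kinesin in both areas. Kif1b had 137 and 121 TPM. Most of the TPM of Kif1a came from short annotated transcripts that start near the 5′ end of the gene. Kif1a-206, a 528-base coding fragment, held 56.7% and 55.4%, and the 570-base processed transcript Kif1a-208 held 22.3% and 20.9%. In counts Kif1a-206 held 13.1% and 11.3%. TPM divides counts by length, so a short transcript weighs more in it. Near-full-length coding transcripts of Kif1a had 85.8 and 84.9 TPM, which placed the gene at rank 12 of the 63 where its gene level had placed it at rank 3. Those of Kif1b had 72.0 and 70.0 TPM, so that on this sum Kif1a held 54.6% ± 0.31 (SD, n = 2) of the pair. By that measure Kif5a, at 129 and 122 TPM, was the kinesin heavy chain with the highest level. In counts, which are not scaled for length, Kif1b had 17410 and 17352, Kif5a 17191 and 16891, and Kif1a 16326 and 16881.

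The other kinesin-3 genes were low. Kif16b, an endosome motor, had 3.21 and 3.72 TPM, of which near-full-length coding transcripts held 1.02 and 1.71 TPM. Kif13b had 2.91 and 2.36 TPM, all of it near-full-length, and Kif13a had 0.65 and 1.73 TPM. Kif1c had 1.43 and 0.77 TPM, so that its level lay far under those of Kif1a and Kif1b. Kif14, a motor of cytokinesis, had 36 counts in replicate 1 and 0 in replicate 2. Kif28 had 2 and 0 counts. Kif1bp, whose product holds several kinesins away from microtubules, had 68.1 and 83.2 TPM.

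Of the remaining families, 2 genes were abundant. Kif21a, a kinesin-4 that restrains microtubule growth, had 50.7 and 61.4 TPM, and its relative Kif21b had 2.70 and 4.50 TPM. Kif2a, a kinesin-13 that takes microtubules apart and trims axon branches, had 25.9 and 26.4 TPM, with 19.2% of its exonic bases shared with Dimt1 on the other strand. On the log2(TPM + 1) scale, replicate 1 minus replicate 2, they differed by -0.27 for Kif21a and by -0.03 for Kif2a, and the sign for Kif2a turned with CPM (counts scaled to library size only), at 0.32. Kif9, a kinesin-9, had 2.12 and 4.03 TPM from 136 and 261 counts, and Kif22, a kinesin-10 of mitotic chromosomes, had 1.09 and 1.08 TPM. Kif26b, a kinesin-11, had 0.73 and 0.56 TPM.

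The kinesins best known for mitosis were low, and so were those known for cilia outside kinesin-2, whose genes also build cilia and are described above. Of 11 mitotic kinesins (Kif4, Kif11, Kif14, Kif15, Kif18a, Kif18b, Kif20a, Kif20b, Kif22, Kif23 and Kif2c), Kif22 alone reached 1 TPM in both areas, and their TPM summed to 3.07 and 2.02. Of 6 other ciliary kinesins (Kif6, Kif7, Kif9, Kif19a, Kif24 and Kif27), Kif9 alone did, and their sum was 3.85 and 5.06 TPM. The 12 kinesin subunits of axonal transport, Kif5a, Kif5b, Kif5c, Klc1, Klc2, Kif3a, Kif3b, Kif3c, Kifap3, Kif1a, Kif1b and Kif21a, all reached 1 TPM in both areas and summed to 1447 and 1500 TPM. Over all protein-coding genes, 51.5% reached 1 TPM in both areas. These groups were set after the values were known and are a description. Kif2a, at 25.9 and 26.4 TPM, and Kif2b are kinesin-13 genes like Kif2c and were left out of the mitotic group. Kif15 had 36 and 7 counts, Kif18a 38 and 3, Kif11 2 and 11, and Kif23 7 and 30, and no fold between areas is given. Kif26a had 7 and 1 counts. Part of Kif20a and Kif4, 29.3% and 15.1% of their exonic bases, is shared with Cdc23 and Pdzd11 on the other strand. Kif12, Kif18b, Kif19a, Kif2b and Kif2c had 0 counts in both libraries, which allows up to 0.115 CPM in replicate 1 and 0.106 CPM in replicate 2 for counting error only. Of 10 proliferation markers, Birc5 alone reached 1 TPM in both areas, at 1.98 and 1.85 TPM, and the list summed to 4.03 and 5.54 TPM. Ccnb1 had 0.94 and 1.25 TPM, Cdc20 0.76 and 1.02, Ccna2 0.33 and 0.76, Plk1 0 and 0.66, and Mki67 0.02 and 0. Top2a, Cdk1, Bub1 and Aurkb were at 0 in both. Of 8 ependymal markers, which would go with motile cilia, none reached 1 TPM in both areas and Foxj1 was at 0.

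By gene level, every cytoplasmic dynein gene of the rule reached 1 TPM in both areas, though Dynlt1c did so through transcripts annotated as not coding. Dync1h1, the heavy chain that carries the motor (chromosome 12, 110601452 to 110666945), had 58.2 and 46.3 TPM. The intermediate chains, which hold the complex together and bind dynactin, were Dync1i1 at 85.0 and 92.6 TPM and Dync1i2 at 58.9 and 68.5 TPM. Dync1i1, the form known from neurons, held 58.3% ± 1.12 (SD, n = 2) of the pair. Of the light intermediate chains, which link to activating adaptors, Dync1li1 had 55.6 TPM in each library and Dync1li2 had 35.4 and 41.0 TPM. The order within each pair was the same in both areas. The heavy chain lay under the summed intermediate chains, at 144 and 161 TPM, and the summed light intermediate chains, at 91.0 and 96.6 TPM.

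The gene level of Dync1h1 was itself made up in large part by short transcripts. Dync1h1-204, a 427-base annotated retained intron, held 50.8% and 50.4% of the TPM of the gene and 3.08% and 2.78% of its counts. The 14342-base coding transcript Dync1h1-201 held 36.3% and 40.2% of TPM and 95.7% and 96.4% of counts. Near-full-length coding transcripts of Dync1h1 had 21.1 and 18.6 TPM, at rank 28 of the 63 genes in place of 21. In that sum the heavy chain of dynein was lower than any of its intermediate or light intermediate chains.

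The light chains of dynein gave the 2 highest levels of all 63 genes, Dynll1 and Dynlrb1. Dynll1, a small dimer that also serves many proteins outside dynein, had 2162 and 1889 TPM, at the 99.8 percentile of all protein-coding genes, while its relative Dynll2 had 52.9 and 47.6 TPM. Dynll1 lay 40.9-fold above Dynll2 in replicate 1 and 39.7-fold above it in replicate 2. Transcripts annotated as not coding held 61.8% and 58.9% of the TPM of Dynll1, and 49.6% and 45.8% of its counts, and its coding transcripts alone had 826 and 776 TPM. It still led all 63 genes by that sum. Dynlrb1, the roadblock light chain, had 792 and 826 TPM, and Dynlt3, a Tctex light chain, had 185 and 199 TPM. Dynll1 has a processed pseudogene on chromosome 19, Gm6788, that is 96.7% alike over 37.0% of its transcript and was listed at 0.27 and 0 TPM.

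The Dynlt1 copies could not be told apart with confidence. Dynlt1a had 13.8 and 15.3 TPM, Dynlt1b 25.0 and 25.3, Dynlt1c 5.16 and 4.91, and Dynlt1f 7.40 and 6.18. The 4 genes lie next to each other on chromosome 17, with no other protein-coding gene between neighbours, and each codes for the same residues in 339 bases. Their coding sequences differ at 1 base, C21A between Dynlt1a and Dynlt1b, counted from the first base of the start codon. The start of the coding sequence is shown for the 2 forms, with that base in capitals.
Dynlt1a: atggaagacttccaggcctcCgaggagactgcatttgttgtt
Dynlt1b: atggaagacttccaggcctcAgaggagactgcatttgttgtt
Dynlt1c and Dynlt1f read as Dynlt1a over all 339 bases. Their expected counts were not whole, as happens when reads are divided among copies, and the pseudogene Dynlt1-ps1 on chromosome 6, which is 99.7% to 100% alike over 44.4% of a copy, took 39.1 and 32.7 counts. In addition, 13.6% of the exonic bases of Dynlt1a belong to Tmem181a on the other strand. Near-full-length coding transcripts of Dynlt1c had 0 and 0.59 TPM. The levels of the single copies are therefore uncertain. The 4 copies remained under Dynlt3, which held 78.8% ± 0.81 (SD, n = 2) of the Tctex light chain TPM.

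All 6 dynactin genes of the rule, which takes only those named Dctn, were present. Dctn3, Dctn6, Dctn2 and Dctn5 stood above Dctn1 and Dctn4. Dctn3, the p24 shoulder subunit, had 329 and 344 TPM, and Dctn2, dynamitin, had 127 and 167 TPM. Dctn6 and Dctn5, of the pointed end complex, had 164 and 181 TPM and 116 and 125 TPM. Dctn1, the p150 arm that binds microtubules and dynein (chromosome 6, 83165920 to 83200117), had 48.9 and 46.2 TPM, and Dctn4 had 36.5 and 35.6 TPM. The order of these 6 genes was the same in both areas. Dctn6 again carries a limit: the retained intron Dctn6-210 held 63.0% and 63.3% of its TPM, and its near-full-length coding transcripts had 26.0 and 31.3 TPM, which placed it under the other 5. The gene Dctn2 lies head to head with Kif5a on chromosome 10, the start sites 3020 bases apart with no other protein-coding gene between. On the log2(TPM + 1) scale, replicate 1 minus replicate 2, Kif5a differed by 0.07 and Dctn2 by -0.39.

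**Figure D2:**
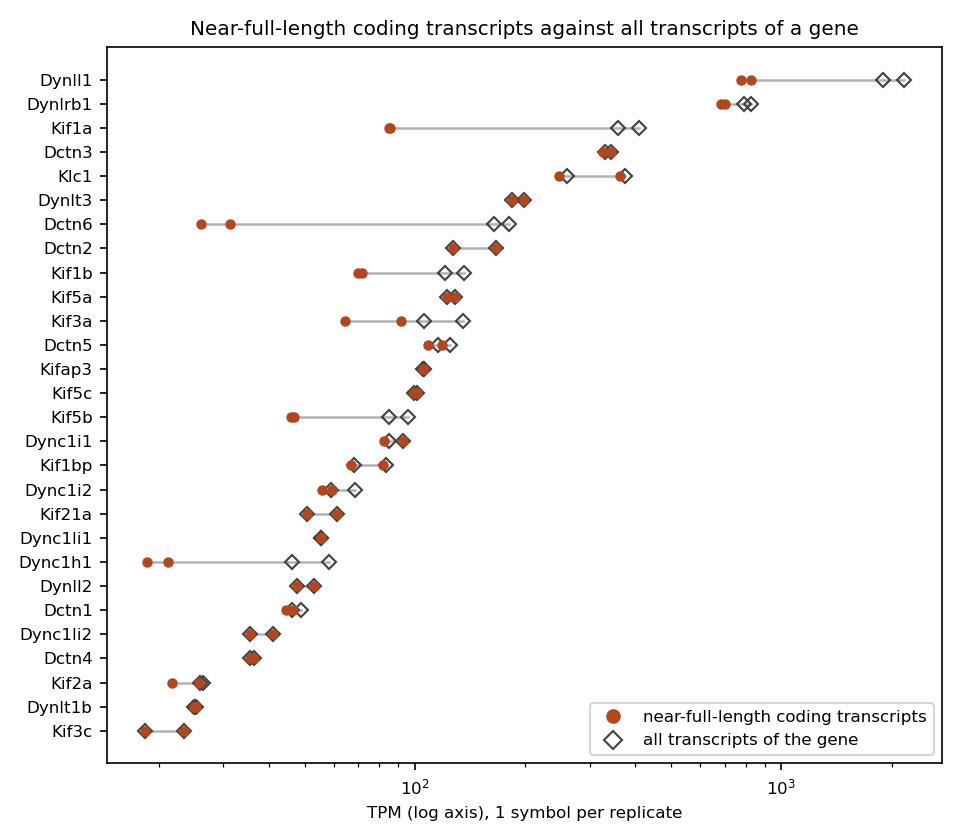
TPM (log axis) of near-full-length coding transcripts (filled circles) and of all transcripts (open diamonds) for the 28 genes with a mean TPM of 20 or above, with 1 symbol per replicate. Kif1a, Dctn6, Dync1h1, Dynll1, Kif3a, Kif5b and Kif1b show the long grey lines. Kif1a has 85.8 and 84.9 TPM in near-full-length transcripts and 408 and 359 TPM over all transcripts.

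Short and not coding transcripts weighed on a minority of the genes. Of 28 genes with a mean TPM of 20 or above, 20 had at least 90% of their TPM in near-full-length coding transcripts. In 4 genes, Dynll1, Kif1a, Dctn6 and Dync1h1, the share was under 50%, at 39.7%, 22.3%, 16.6% and 38.3% over both areas. Counted by reads in place of TPM, Dctn6 alone stayed under 50%, at 23.6%. The shares were close between the areas in each of these genes. The position of the short transcripts within the gene differed: Kif1a-206 starts 117 bases from the 5′ end of the gene, and Dync1h1-204 ends 2071 bases from the 3′ end.

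**Figure D3:**
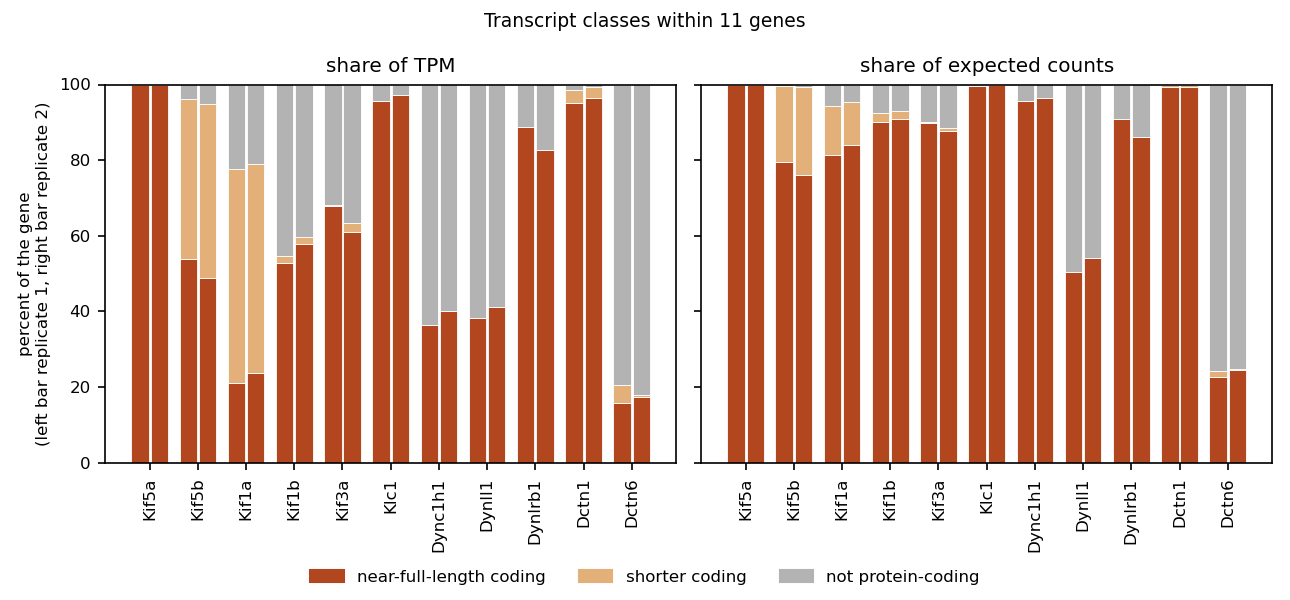
Percent of TPM (left panel) and of expected counts (right panel) held by near-full-length coding, shorter coding and not protein-coding transcripts in 11 genes, with replicate 1 as the left bar and replicate 2 as the right bar of each pair. In replicate 1, near-full-length transcripts held 21.01% of the TPM and 81.3% of the counts of Kif1a, and 36.3% of the TPM and 95.7% of the counts of Dync1h1.

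Several subunits were estimated as more than 1 near-full-length coding form. Klc1-202 held 56.9% and 61.6% of Klc1 and Klc1-203 held 32.5% and 29.9%. Klc1-202 has 3 coding bases that Klc1-203 lacks, not shown here. Klc1-203 has 30 and 27 coding bases that Klc1-202 lacks. Such stretches are printed here in capitals throughout, since all of their bases set the forms apart (plus strand, mm10).
Klc1-203, chr12:111793649-111793678: ATGAGAAAGATGAAGCTCGGGCTGGTTAAA
Klc1-203, chr12:111789460-111789486: GTGAGTATGAGCGTAGAGTGGAATGGG
Dctn1-203 held 54.7% and 58.7% of Dctn1, and Dctn1-204, at 33.2% and 25.8%, starts 13669 bases into the gene. The forms have 3792 and 3729 coding bases. Stretches of 56, 15 and 43 coding bases are in Dctn1-203 and not in Dctn1-204, and are not shown here. Dctn1-204 has 33 and 18 coding bases that Dctn1-203 does not have.
Dctn1-204, chr6:83179873-83179905: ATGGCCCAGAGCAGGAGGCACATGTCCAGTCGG
Dctn1-204, chr6:83182524-83182541: ACGCCGAGTGGCAGCAGG
Among the intermediate chains, Dync1i1-204 held 68.6% and 68.0% and Dync1i1-203 held 19.7% and 26.0%, and 33 coding bases are in Dync1i1-204 and not in Dync1i1-203. In Dync1i2, 18 coding bases are in Dync1i2-208, at 38.1% and 27.9%, and not in Dync1i2-207, at 12.7% and 26.8%.
Dync1i1-204, chr6:5769701-5769733: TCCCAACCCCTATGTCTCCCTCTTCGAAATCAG
Dync1i2-208, chr2:71227827-71227844: TTTTTTCTGAGTACTGGG
Dync1i2-208 led in both areas, while Dync1i2-201, at 23.5% and 11.8%, lay above Dync1i2-207 in replicate 1 and under it in replicate 2. Dync1i2-206, with 1914 coding bases like Dync1i2-208, held 17.5% and 16.9%. Whether Dync1i2-206 and Dync1i2-201 have the 18 bases was not compared, so the total share of forms with them is not given. In the kinesins, Kif21a-204 held 72.1% and 77.2% of Kif21a. Kif2a-201 held 88.2% and 70.7% of the TPM of Kif2a, but 91.9% and 89.8% of its counts. Kif2a-204, also near-full-length, held 11.8% and 10.7% of TPM. The 288-base shorter coding transcript Kif2a-205 held 0% and 17.6% of TPM, from 0 and 19.6 counts. With 1 library on each side no test of these shares was possible.

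None of the 42 genes that averaged 1 TPM or more passed 2-fold on the log2(TPM + 1) scale, where 10.3% of 11841 protein-coding genes under the same filter did. Of the 11841 genes, 4.99% were past 2-fold and higher in replicate 1 and 5.31% in replicate 2. Where the mean was 10 TPM or above the share is 3.90% of 6466 genes, so that a count of 0 in 30 such genes stands close to the background. The median log2 difference, replicate 1 minus replicate 2, was -0.045 for the 42 genes and -0.046 for all, with 16 genes higher in replicate 1, 25 higher in replicate 2 and Dync1li1 equal. The median size of the difference was 0.22 in the 12 genes between 1 and 10 TPM, beside 0.45 in 5375 protein-coding genes of that range. It was 0.11 in 8 genes between 10 and 50 TPM (0.30 in all), 0.15 in 17 between 50 and 200 TPM (0.22), and 0.18 in 5 above 200 TPM (0.19).

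**Figure D4:**
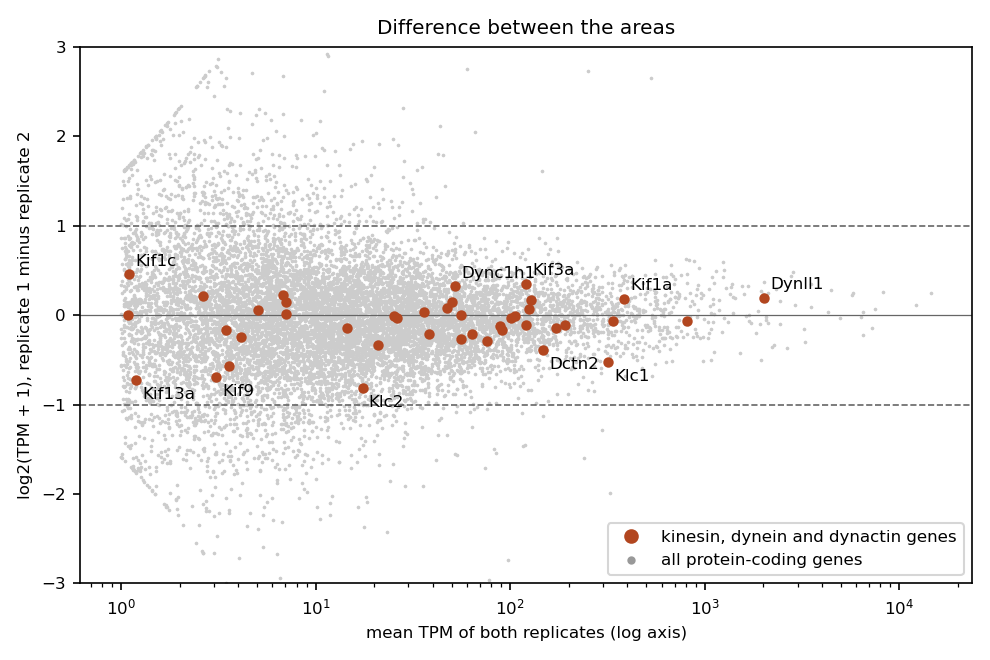
Difference between the areas, log2(TPM + 1) of replicate 1 minus replicate 2, against mean TPM (log axis) for 42 transport genes and 11841 protein-coding genes (grey); dashed lines are 2-fold, and 25 grey genes lie outside the plotted range of 3. All 42 lie between the dashed lines, and Klc2, at -0.82, is nearest to one.

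The gaps between the areas ran both ways. Klc2 differed by -0.82 on the log2(TPM + 1) scale, with 539 counts in replicate 1 and 1009 in replicate 2, and was 1.73-fold higher in replicate 2 in CPM (95% counting interval, exact Clopper-Pearson, 1.55 to 1.92). Klc1 differed by -0.53, from 11648 and 17626 counts, and was 1.39-fold higher in replicate 2 (1.36 to 1.43). Kif13a had 95 and 261 counts and was 2.53-fold higher in replicate 2 (1.99 to 3.24), while on the log2(TPM + 1) scale it differed by -0.73. Kif9 and Kif21b were also higher in replicate 2, at -0.69 and -0.57 on that scale. Going the other way, Kif1c differed by 0.46, from 198 and 111 counts. In CPM it was 1.94-fold higher in replicate 1 (1.53 to 2.46). Kif3a differed by 0.35 and Dync1h1 by 0.32 on the log2(TPM + 1) scale. In CPM, Kif3a, with 6237 and 4663 counts, was 1.45-fold higher in replicate 1 (1.40 to 1.51), a wider gap than that of Klc1. The intervals cover counting error only, not the spread among areas or animals.

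Cell class markers also differed between these libraries. All 12 oligodendrocyte genes were higher in replicate 2, with summed TPM of 609 in replicate 1 and 1196 in replicate 2, and 8 of them passed 2-fold. Of 12 microglial genes 11 were higher in replicate 1 and beyond 2-fold, and the sum was 396 and 132 TPM. All 12 pan-neuronal genes were higher in replicate 2, at 9323 and 11045 TPM in sum, none beyond 2-fold. The astrocyte sum was 1722 and 2093 TPM, and of 11 genes that averaged 1 TPM or more 3 were higher in replicate 1 and 8 in replicate 2. The endothelial sum was 162 and 109 TPM, but its genes were mixed: of 7 under that filter, 4 were higher in replicate 1 and 3 in replicate 2. The interneuron list was split: of 10 genes that averaged 1 TPM or more, 5 were higher in replicate 1 and 5 in replicate 2. The 5 past 2-fold were Gad1, at 438 and 65.2 TPM, Pvalb, at 918 and 145 TPM, Sst, at 194 and 2859 TPM, Npy, at 27.2 and 61.5 TPM, and Reln, at 6.36 and 30.3 TPM. Gad2 went against Gad1, at 23.9 and 31.8 TPM. Slc32a1 had 4.43 and 3.40 TPM, Lhx6 4.73 and 5.09 TPM and Dlx1 9.46 and 8.54 TPM. The part of these classes in the differences of Klc1, Klc2, Kif13a or Kif9 was not tested.

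Adaptors and regulators of the motors were present as well. All 23 listed adaptors and cargo links reached 1 TPM in both areas, beside 51.5% of all protein-coding genes. The list was chosen with earlier results of these data known. Fez1, a kinesin-1 adaptor, had the highest level, at 290 and 259 TPM. Arl8b, a lysosomal GTPase that recruits kinesin, followed at 142 and 159 TPM. Clstn1, calsyntenin-1 that binds Klc1, had 123 and 156 TPM. Of the 23, 2 passed 2-fold between the areas, both higher in replicate 2: Arl8a at 49.1 and 102 TPM and Ppfia3 at 8.72 and 20.0 TPM. That stands close to the background, where 10.3% of 11841 protein-coding genes passed 2-fold and 5.31% were higher in replicate 2. Of 18 genes listed as dynein regulators and activating adaptors, 16 reached 1 TPM in both, beside the same 51.5% of all protein-coding genes. Trak1 and Hap1 are also among the 23. The list was set by hand, and a tie to dynein was not tested for its members. The highest levels were Clip3 at 75.5 and 108 TPM and Ndel1 at 56.4 and 74.5 TPM. Mapre1 had 49.4 and 56.1 TPM and Pafah1b1 (Lis1) 44.8 and 32.6 TPM. Bicdl1, at 12.8 and 30.1 TPM, alone passed 2-fold in this list, a count that does not exceed the same background.

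Motor genes outside the rule gave a few further values. Kifc2, a minus-end directed kinesin of neurons, had 25.4 and 50.7 TPM, Dync2li1 of the ciliary dynein had 28.5 and 19.1 TPM, and Dynlrb2 had 1.17 and 4.87 TPM. Dynlrb2 alone passed 2-fold among the 6 that averaged 1 TPM or more. Of the tubulins, which build the tracks of the motors, 13 of 17 reached 1 TPM in both areas, beside 51.5% of all protein-coding genes. Tuba1a led the tubulins, at 868 and 1032 TPM. Tubb2b, at 6.05 and 2.43 TPM, alone passed 2-fold among them. Such single genes stand beside the 10.3% of 11841 protein-coding genes past 2-fold under the same filter. Across the 42 transport genes, coding length and gene TPM were weakly related, at Spearman's rho = -0.29 as a description over genes, and over the 18 kinesin heavy chains alone it was 0.06.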

How the data were processed

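The authors deposited, for each library, a gene table and a transcript table of expected counts, which are estimated read numbers that need not be whole, and TPM. The deposited tables also gave the percent of each gene's expression held by a transcript, and the posterior mean estimate of TPM. Per the deposited text files, reads were placed on mm10 with annotation M4; the aligner, the quantifier, their versions and the strand setting are not given in the sources used here. TPM was scaled by the authors over all features, spike-ins included.

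Symbols, coordinates and coding lengths came from GENCODE M21 of the same assembly, matched by identifier for 42462 of 43346 genes. Rows with no gene name there held 0.157% and 0.153% of the counts and were left out. Both libraries carry the same donor in the labels and were treated as 1 group. Their counts differed beyond sampling noise (chi-square per degree of freedom 69.5 over 14131 genes with a summed count of 50 or more), so each was kept. Detection was set at 1 TPM and a gene counted as different past 2-fold on log2(TPM + 1), with a pseudocount of 1, if its mean was at least 1 TPM. That scale understates changes of low genes. With 1 library on each side there was no test.

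Values in both libraries are given for genes with a mean of at least 10 TPM, for the leading gene of each family and, in the lists of other transport genes, for up to 4 leading genes and those past 2-fold; cell class lists are given as sums and counts. Transcripts are named for genes with a mean of at least 20 TPM whose second transcript held 10% or more; other names were added after the values were seen. The members and lists were chosen with earlier results of these data known, and the mitotic, ciliary and transport groups and the near-full-length sum (coding part at least 80% of the longest) after the values were seen. Rounded expected counts gave TMM factors (edgeR 4.0.16, R 4.3.3). Biopython 1.88, matplotlib 3.10.9, scipy 1.17.1, pandas 2.3.3 and numpy 2.4.6 under Python 3.11.15 did the rest. Counting intervals are exact Clopper-Pearson at 95% and the limit of a 0 count is 3 counts; reads carry no molecular identifiers, so both cover counting error only.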

Additional observations from a re-analysis of the deposited data

Results flagged for a closer look

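Genes that match the symbols but are not protein-coding were left out of the 63, and 2 of them had signal above the limit that a count of 0 allows. The processed pseudogene Dynlt1-ps1 had 39.07 expected counts in replicate 1 and 32.66 in replicate 2, at 7.47 and 6.04 TPM, between the levels of Dynlt1c and Dynlt1a. The antisense gene Kif16bos had 0 counts in replicate 1 and 6 in replicate 2, at 0.68 TPM. Kif22-ps and Kif4-ps had 0 counts in both.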

How the results depend on the processing

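The number of genes at 1 TPM or more in both areas, 40, lay between 33 and 43 under the other detection levels and scalings. The median of 7.03 TPM was 9.08 when TPM was rescaled over nuclear genes and 49.4 over the 42 genes at 1 TPM or more in either area, a set of fewer genes by construction. With 1 library left out it ranged from 6.65 to 7.40. The median log2 difference, -0.045, was 0.039 with CPM, where the median protein-coding gene was at 0.0098, and the count beyond 2-fold, 0, was 1 with a pseudocount of 0.1, with CPM and with TMM-scaled CPM, the gene being Kif13a each time. The share of Kif5a, 39.6%, was 43.0% in CPM, which has no length scaling, and 46.1% in near-full-length transcripts; that of Kif5b, 28.6%, was 19.5% and 17.0%; that of Kif5c, 31.8%, was 37.5% and 36.9%, and 31.9% with posterior mean TPM. Leaving out a library gave 38.3% to 41.0%, 27.2% to 29.9% and 31.8%. The number of genes with under 50% of their expression in near-full-length coding transcripts was 4 by TPM and 1 by counts. Of 30 abundant genes, the sign of the difference changed with CPM and with TMM scaling in 5 (Dynlrb1, Dynlt1b, Kif2a, Kif5c and Kifap3), with near-full-length sums in 2 (Dynlrb1 and Kif2a), and in 0 with posterior mean TPM or the other pseudocount; the cause was not tested. No paired analysis was possible because there was 1 group of 2 libraries, and the difference between the areas cannot be had without either one.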
